A study of Pan troglodytes with 217 samples.

Results

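The LIF, gp130 and STAT3 signalling genes were described in single cells of chimpanzee blastoids, which are blastocyst-like structures grown from naive pluripotent stem cells. The set holds 9 genes picked by name for their roles: the ligands LIF and IL6, the receptors LIFR, IL6R and IL6ST (gp130), the transducers JAK1 and STAT3, and the feedback inhibitors SOCS3 and SOCS1. They correspond to 10 of the 33729 chimpanzee Ensembl identifiers in the count table, because IL6 has a pair of identifiers. Levels were taken from cells with at least 8000 detected genes, which were 88.9% of the cells sequenced, with 24 cells left out.

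Cytokines of this family share gp130 as a signalling chain: IL-6 first binds IL6R, while LIF brings gp130 together with LIFR, a chain that several related cytokines also use. Kinases bound to the receptors, among them JAK1, then phosphorylate STAT3, which enters the nucleus and switches on its targets, including SOCS3, whose protein in turn shuts down the receptor complex. The pathway is best known in the early embryo for sustaining naive pluripotency in mouse stem cells, and LIF is a standard component of media for naive primate cells. RNA levels show which parts of the pathway a cell transcribes, not whether STAT3 is phosphorylated.

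All cells came from 1 condition: day 4 blastoids of Pan troglodytes, made from naive iPSCs and sequenced by SMART-seq2, which gives a full-length cDNA library for each cell. Before blastoid formation the naive iPSCs were kept in N2B27 with PD032590 (a MEK inhibitor), XAV939, Gö6983, human LIF, Activin-A, IL6 and EPZ-6438, which inhibits the methyltransferase EZH2. Per the study's methods, blastoids formed in PD, A83 (a TGF-beta receptor inhibitor), LPA and Y-27632, then without PD, then in plain N2B27, so LIF and IL6 were not among the named components at those steps. Mural trophectoderm was cut away with needles and handled apart from the inner cells with their polar trophectoderm, and the cell line, blastoid and library batch of each cell were not given. With no replicate cultures to compare, all cells count as a single sample and the classes could not be tested against each other. A difference is described by its size, with a ratio of at least 2 counted as apart, and every interval of a level or ratio is a 95% interval for read counting error only, in which reads from the same amplified cDNA are not separate molecules. Intervals of shares are 95% intervals over the cells of this sample.

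Clustering of the cells gave 50 that were epiblast-like and 32 that were hypoblast-like, and the rest were trophectoderm-like. The 9 genes and the other pathway genes entered this clustering with all other genes, but leaving them out gave the same 3 classes. The clusters were named from the marker lists that follow, so markers highest in their own class are no separate check of the names. All 11 epiblast markers were highest in the first class, and 9 of 10 hypoblast markers in the second, the exception being LAMA1. All 10 trophectoderm markers were highest in the third class, which fell into a pair of clusters of 60 and 51 cells. These are called CCR7-low and CCR7-high after the pooled level of the chemokine receptor CCR7, 5.71 and 315 CPM, and not from a threshold on it, since a CCR7 read was found in 19 of 60 and 48 of 51 of the cells. The CCR7-high cells also led in CYP19A1 and CGA, genes of placental hormone synthesis. This split was the less stable one, since 10 of 22 runs over seeds and cell orders, the run used here included, gave 60 and 51 cells and 12 gave 72 and 39. Markers of fibroblasts, the cell type used as feeders in some cultures, had a median of 0.0581 CPM in epiblast-like, 0 in hypoblast-like and 0.0610 in trophectoderm-like cells. Between 1679888 and 25630392 reads were counted per cell, with class medians of 3951119, 3978822 and 3960857 reads and maxima of 8316965, 9491341 and 25630392 reads, so the medians were close but trophectoderm-like cells held the deepest cell. Within that class depth was unequal, with medians of 3693058 reads in CCR7-low and 4516217 reads in CCR7-high cells. Shares of cells with a read of LIF, LIFR, SOCS2 or KLF4 in these clusters are therefore also given after thinning each cell to 2532312 reads, which leaves out shallower cells. Levels are given as CPM, the reads of a gene per 1000000 reads, pooled over the cells of a class, with the lowest, median and highest cell. CPM is not corrected for gene length, so levels are compared for 1 gene between cells and not between genes.

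The parts of the pathway were spread unequally over the classes. Epiblast-like and hypoblast-like cells held more RNA for IL6R, IL6ST, STAT3 and SOCS3 than trophectoderm-like cells, while SOCS1 was highest in the CCR7-high trophectoderm-like cells. RNA for the ligands was low in every class.

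**Figure D1:**
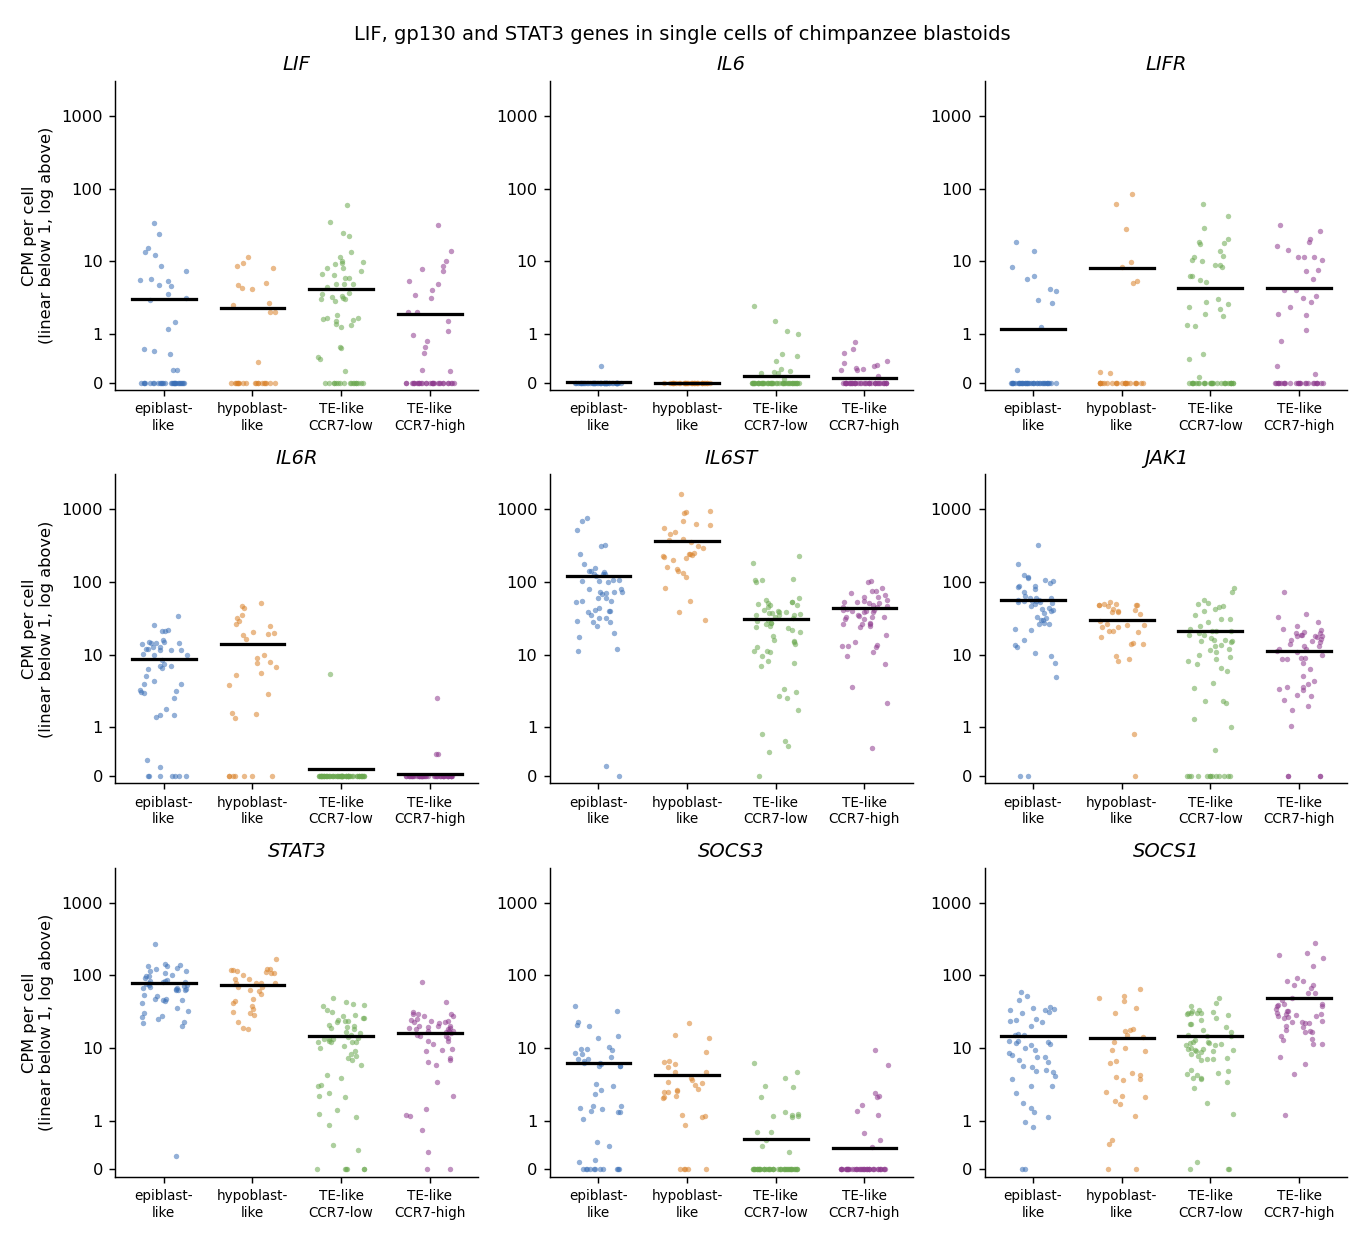
Level of each of the 9 genes in single cells. Each point is 1 cell, the vertical axis is CPM (linear below 1, logarithmic above), the columns are the 50 epiblast-like, 32 hypoblast-like, 60 CCR7-low and 51 CCR7-high trophectoderm-like (TE-like) cells, and the black line is the pooled CPM of the class. IL6R is at 0 in nearly all trophectoderm-like cells, and IL6ST is highest in hypoblast-like cells.

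LIF (ENSPTRG00000014236) encodes the ligand of LIFR. Its RNA had a pooled level of 3.04 CPM in epiblast-like cells (95% interval 2.81 to 3.28), 2.30 CPM in hypoblast-like cells (2.05 to 2.58) and 3.03 CPM in trophectoderm-like cells (2.88 to 3.19). A read was found in 22 of 50 epiblast-like cells, in 13 of 32 hypoblast-like cells and in 64 trophectoderm-like cells (57.7%). The lowest and the median epiblast-like cell were at 0 and the highest at 33.3 CPM, against a median of 0 and a highest value of 11.3 CPM in hypoblast-like cells and a median of 0.728 and a highest value of 58.9 CPM in trophectoderm-like cells. LIF was thus a sparse transcript, found in fewer than 50% of the cells of the epiblast-like or the hypoblast-like class, and the ranges of all classes overlapped. The epiblast-like level was 1.00 times that of trophectoderm-like cells (0.914 to 1.10). Within the trophectoderm-like cells, 43 of 60 CCR7-low and 21 of 51 CCR7-high cells had a read (35 of 54 and 17 of 46 after thinning), at pooled levels of 4.11 and 1.89 CPM. This difference of 2.17-fold (1.94 to 2.42) fell to between 1.58-fold and 1.89-fold under 8 other settings of filter, clustering, cell order or depth, and to 1.95-fold without the cell with most LIF reads, so its place past 2-fold depends on the processing.

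IL6 encodes the cytokine IL-6. Of its identifiers, ENSPTRG00000018979 held all 56 reads found and ENSPTRG00000050502 held 0. Hypoblast-like cells had 0 reads, which allows up to 0.0233 CPM at 3 reads, and epiblast-like cells had 1 read. The other 55 reads lay in 25 trophectoderm-like cells (22.5%), at a pooled 0.106 CPM (0.0802 to 0.139) and a highest cell of 2.44 CPM or 8 reads. IL6 was thus near the limit of detection, with a median of 2 reads in the cells that had any. Against epiblast-like cells the ratio was 22.9, with an interval of 3.95 to 921 that reflects the single read there. Without the highest cell of each class that read was gone, and the value was at least 6.48-fold, taking 3 reads for the epiblast-like level. Against hypoblast-like cells trophectoderm-like cells were at least 4.56-fold higher, taking 3 reads for the hypoblast-like level. This bound was 3.76 without the highest cell of each class.

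LIFR (ENSPTRG00000016809) encodes the receptor chain that binds LIF and pairs with gp130. Its pooled level was 1.17 CPM in epiblast-like cells (1.03 to 1.33), 8.10 CPM in hypoblast-like cells (7.61 to 8.61) and 4.35 CPM in trophectoderm-like cells (4.17 to 4.53). The pooled values and the cells did not rank the classes alike. LIFR reads were found in 22% of epiblast-like cells (11 cells, 95% interval 11.53% to 35.96%), 28.1% of hypoblast-like cells (9 cells, 13.7% to 46.7%) and 50.5% of trophectoderm-like cells (56 cells, 40.8% to 60.1%). In the hypoblast-like class 1 cell held 45.1% of the LIFR reads, the highest cells were at 84.5 and 60.9 CPM and the median cell was at 0. The highest epiblast-like and trophectoderm-like cells were at 18.42 and 61.9 CPM, with medians of 0 and 0.118 CPM. Hypoblast-like cells were 6.92-fold above epiblast-like cells (6.02 to 7.97) as pooled, and 4.49-fold above them without the highest cell of each class. Without those cells the ratio of hypoblast-like to trophectoderm-like cells moved from 1.86 to 1.13. Trophectoderm-like cells were 3.71-fold above epiblast-like cells (3.26 to 4.25), and CCR7-high and CCR7-low cells were at 4.36 and 4.34 CPM. The RefSeq gene table, which is of another assembly than the counts, places an lncRNA gene over LIFR, and the counting strand was not given, so reads of both cannot be told apart.

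IL6R (ENSPTRG00000001383) encodes the receptor chain that binds IL-6. Its ratios to trophectoderm-like cells were the largest of the 8 members with reads in every class. Epiblast-like cells had an IL6R read in 43 of 50 cases and hypoblast-like cells in 25 of 32, but trophectoderm-like cells in 4 cases, 3.604% of them (0.990% to 8.97%). Epiblast-like cells ranged from 0 to 34.3 CPM with a median of 7.001, and hypoblast-like cells from 0 to 50.6 CPM with a median of 7.79. The pooled levels were 8.78 CPM (8.39 to 9.18), 13.9 CPM (13.3 to 14.6) and, in trophectoderm-like cells, 0.0949 CPM (0.0702 to 0.125). The interquartile ranges of epiblast-like and trophectoderm-like cells did not overlap. Epiblast-like cells were 92.5-fold (69.7 to 125.5) and hypoblast-like cells 146.8-fold (110.5 to 199.2) above trophectoderm-like cells. Of the 49 trophectoderm-like reads, 38 came from 1 CCR7-low cell at 5.50 CPM, and the ratios without the highest cell of each class were 381 and 621. The size of these ratios therefore rests on the 4 positive trophectoderm-like cells. With cells thinned to 2532312 reads, IL6R reads remained in 41 of 48 epiblast-like cells, in 19 of 25 hypoblast-like cells and in 2 of 100 trophectoderm-like cells. A pseudogene overlaps IL6R in the RefSeq table.

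IL6ST (ENSPTRG00000016887) encodes gp130, the chain shared by the receptors of the family. It was read in nearly every cell: 49 of 50 epiblast-like cells, all hypoblast-like cells and all trophectoderm-like cells but 1. Epiblast-like cells ran from 0 through a median of 72.1 to 766 CPM, hypoblast-like cells from 29.8 through 245.9 to 1604 CPM, and trophectoderm-like cells from 0 through 32.9 to 225.5 CPM. Hypoblast-like cells were thus the highest class, and their interquartile range lay above that of epiblast-like cells. The pooled levels were 120.7 CPM (119.3 to 122.2), 371 CPM (368 to 375) and 37.1 CPM (36.6 to 37.6). The hypoblast-like level was 3.08-fold above the epiblast-like (3.03 to 3.12) and 10.0-fold above the trophectoderm-like level (9.84 to 10.2). Epiblast-like cells were 3.25-fold above trophectoderm-like cells (3.19 to 3.32), although the epiblast-like interquartile range overlapped that of CCR7-high cells. CCR7-high cells had 43.4 CPM and CCR7-low cells 31.2 CPM, a ratio of 1.39 (1.35 to 1.43).

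A membrane receptor needs both of its chains in the same cell, although IL-6 bound to soluble IL6R can also act on cells with gp130 alone. RNA of both chains in the same cell was counted at 10 CPM or more. LIFR with IL6ST was found in 4% of epiblast-like cells (2 cells, 0.488% to 13.7%), 9.38% of hypoblast-like cells (3 cells, 1.98% to 25%) and 17.1% of trophectoderm-like cells (19 cells, 10.6% to 25.4%). At 10 CPM this pair was thus most frequent in trophectoderm-like cells, and the intervals of all classes overlapped. At 50 CPM that order did not hold. IL6R with IL6ST was found in 40% of epiblast-like cells (20 cells, 26.4% to 54.8%) and 40.6% of hypoblast-like cells (13 cells, 23.7% to 59.4%). It was found in 0 trophectoderm-like cells, which allows a share of up to 2.703% at the limit of 3 counts (3.27% as the upper end of the exact interval). The IL-6 receptor pair at this threshold was thus seen in epiblast-like and hypoblast-like cells and in no trophectoderm-like cell, over cells of 1 sample that are not replicates of a class. From 1 read upwards, the LIF receptor pair was in 10 epiblast-like, 9 hypoblast-like and 56 trophectoderm-like cells, and the IL-6 receptor pair in 42, 25 and 4. IL6ST alone reached 10 CPM in 48 epiblast-like, 32 hypoblast-like and 92 trophectoderm-like cells. Counted by itself, IL6R reached it in 20, 13 and 0 cells of these classes, and LIFR in 2, 3 and 22. The pair counts thus largely restate IL6R and LIFR.

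**Figure D2:**
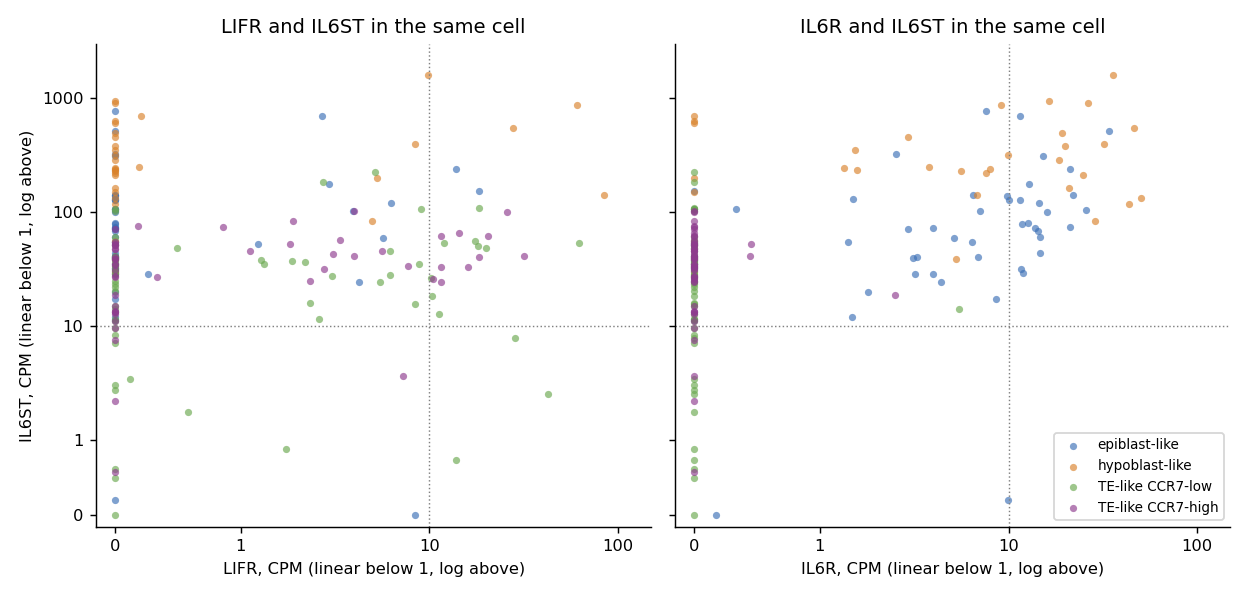
Receptor chains in the same cell. Each point is 1 cell, with LIFR (left) or IL6R (right) on the horizontal and IL6ST on the vertical axis, both in CPM (linear below 1, logarithmic above), and dotted lines at 10 CPM. On the right, the upper right field holds 20 epiblast-like, 13 hypoblast-like and 0 trophectoderm-like (TE-like) cells.

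JAK1 (ENSPTRG00000000825) encodes a kinase bound to gp130. Epiblast-like cells ran from 0 through a median of 50.4 to 318 CPM, hypoblast-like cells from 0 through 26.2 to 52.8 CPM, and trophectoderm-like cells from 0 through 11.7 to 81.8 CPM. The pooled levels fell in the same order, at 56.5 CPM (55.5 to 57.6), 30.1 CPM (29.2 to 31.1) and 16.3 CPM (15.9 to 16.6). Epiblast-like cells were 3.47-fold above trophectoderm-like cells (3.38 to 3.57), and all neighbours in the order overlapped in their interquartile ranges. The hypoblast-like to trophectoderm-like ratio was 1.85 (1.78 to 1.92). It was 2.08 with cells thinned to equal depth and 2.26 without the deepest cell, a CCR7-low cell of 25630392 reads that held 22% of the trophectoderm-like JAK1 reads. CCR7-low and CCR7-high cells had 20.9 and 11.4 CPM as pooled, but medians of 11.8 and 11.4 CPM. RAVER2 and 4 other genes overlap JAK1 in the RefSeq table, so JAK1 reads are uncertain.

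STAT3 (ENSPTRG00000009200) encodes the transcription factor at the end of the cascade. It was read in all 50 epiblast-like and all 32 hypoblast-like cells and in 92.8% of trophectoderm-like cells. Epiblast-like cells ran from 0.269 through a median of 68.5 to 269 CPM, hypoblast-like cells from 18.5 through 74.04 to 170 CPM, and trophectoderm-like cells from 0 through 14.01 to 80.02 CPM. The first pair of classes thus overlapped almost fully, and their interquartile ranges lay above those of trophectoderm-like cells. The pooled levels were 77.8 CPM (76.6 to 78.96), 74.6 CPM (73.1 to 76.1) and 15.5 CPM (15.1 to 15.8). Trophectoderm-like cells were 5.03-fold below epiblast-like cells (4.90 to 5.17) and 4.83-fold below hypoblast-like cells (4.69 to 4.97), while epiblast-like cells were at 1.04 times the hypoblast-like level (1.02 to 1.07). CCR7-high and CCR7-low cells had 16.2 and 14.8 CPM, a ratio of 1.09 (1.05 to 1.14).

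SOCS3 (ENSPTRG00000052259) is a direct STAT3 target whose protein blocks gp130 complexes. SOCS3 reads were found in 39 of 50 epiblast-like cells, in 27 of 32 hypoblast-like cells and in 28 trophectoderm-like cells (25.2%). The lowest cell of each class was at 0, the medians were 2.84, 2.73 and 0 CPM, and the highest cells 38.5, 22.05 and 9.47 CPM. SOCS3 was thus low in all classes and mostly undetected in trophectoderm-like cells. The pooled levels were 6.16 CPM (5.84 to 6.50), 4.26 CPM (3.91 to 4.64) and 0.531 CPM (0.470 to 0.597). Epiblast-like cells were 11.6-fold (10.2 to 13.3) and hypoblast-like cells 8.04-fold (6.94 to 9.32) above trophectoderm-like cells, and the interquartile range of CCR7-low cells overlapped that of epiblast-like but not that of hypoblast-like cells. STAT3 and SOCS3 both reached 10 CPM in 14% of epiblast-like cells, in 9.38% of the hypoblast-like and in 0 of the trophectoderm-like. Both reached 1 CPM in the same cell in 68% of the epiblast-like class, 81.2% of the hypoblast-like and 18.02% of the trophectoderm-like. These shares largely restate SOCS3, since most cells had STAT3. Of the cells with SOCS3 at 1 CPM, 34 of 35, 26 of 26 and 20 of 20 also had STAT3.

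SOCS1 (ENSPTRG00000007765) encodes a related inhibitor that acts on JAK kinases and also responds to interferon. Unlike SOCS3, it was highest in trophectoderm-like cells. Epiblast-like cells ran from 0 through a median of 9.64 to 59.4 CPM, hypoblast-like cells from 0 through 6.44 to 64.9 CPM, CCR7-low cells from 0 through 10.6 to 48.9 CPM and CCR7-high cells from 1.21 through 29.4 to 280 CPM. Only the CCR7-high class stood above the rest in its median. Its interquartile range, from 18.7 CPM, still overlapped those of epiblast-like cells (up to 23.6 CPM) and CCR7-low cells (up to 21.3 CPM). The pooled levels were 14.6 CPM (14.1 to 15.1), 13.9 CPM (13.3 to 14.6), 14.6 CPM (14.2 to 15.1) and 49.5 CPM (48.6 to 50.4) in that order. CCR7-high cells were 3.38-fold above CCR7-low cells (3.26 to 3.51), and the ratio was 3.40 when the split was 72 and 39 cells. With cells thinned to equal depth the log2 ratio was 1.72, against 1.76 as pooled. All trophectoderm-like cells together were 2.16-fold above epiblast-like cells (2.08 to 2.25) and 2.27-fold above hypoblast-like cells (2.16 to 2.38). The first ratio was 1.91 without a pair of CCR7-high cells with 189.1 and 280.1 CPM of SOCS1, which also held 219.98 and 346.8 CPM of the epiblast gene POU5F1 and moved to the epiblast-like class at a Leiden resolution of 1.5, where the log2 ratio of epiblast-like to trophectoderm-like cells was -0.23 in place of -1.11. The CCR7-high to CCR7-low ratio without them was 2.90. An lncRNA gene overlaps SOCS1 in the RefSeq table, and within trophectoderm-like cells SOCS1 was weakly related to the total reads of a cell (Spearman's rho 0.30 over the cells of 1 sample, each its own library).

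Set against all genes, the members stood out most in the comparison of epiblast-like with trophectoderm-like cells. They were chosen with earlier results of these data known, so the counts below describe the set and are no independent support. Of the 9 genes, 5 were at least 2-fold higher in epiblast-like cells (IL6R, IL6ST, JAK1, STAT3 and SOCS3), where 22.7% of the 15804 genes compared were, and 3 were lower (IL6, LIFR and SOCS1), where 13.1% were. The median log2 ratio was 1.70 for the members and 0.12 for all genes compared. Between hypoblast-like and trophectoderm-like cells, 4 members were higher (IL6R, IL6ST, STAT3 and SOCS3) against 15.1% of all genes, and 2 were lower (IL6 and SOCS1) against 16.6%, with medians of 0.90 and -0.05. Between epiblast-like and hypoblast-like cells, 0 members were higher against 20.3% of all genes, and 2 were lower (LIFR and IL6ST) against 8.02%, with medians of 0.06 and 0.20. IL6 had too few reads for this ratio. Between CCR7-high and CCR7-low cells, 1 member was higher (SOCS1) against 11.8%, and 2 were lower (LIF and IL6R) against 11.2%, with medians of -0.50 and 0.04. A further rule of at least 5 CPM in the higher class was added after the values were seen. A gene can pass through its high class alone, as IL6R and SOCS3 did between epiblast-like and trophectoderm-like cells, so counts under this rule are no separate support. With it, 6 of the 6 members that reached 5 CPM were 2-fold apart between epiblast-like and trophectoderm-like cells (5 higher and 1 lower), 4 of 6 between hypoblast-like and trophectoderm-like (3 higher and 1 lower), 2 of 7 between epiblast-like and hypoblast-like (both lower) and 1 of 4 between CCR7-high and CCR7-low cells (higher). For all genes that reached it the shares higher and lower were 19.2% and 10.2%, 12% and 11%, 13.6% and 5.82%, and 7.98% and 5.94% in the same order. The members that reached it had median log2 ratios of 2.06, 1.58, 0.06 and 0.30, against 0.11, -0.03, 0.14 and 0.06 for all genes that did, so between CCR7-high and CCR7-low cells the sign of the members' median depended on this rule. The IL6R difference between CCR7-high and CCR7-low cells rested on 1 CCR7-low cell, and its direction turned without the highest cell of each class.

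**Figure D3:**
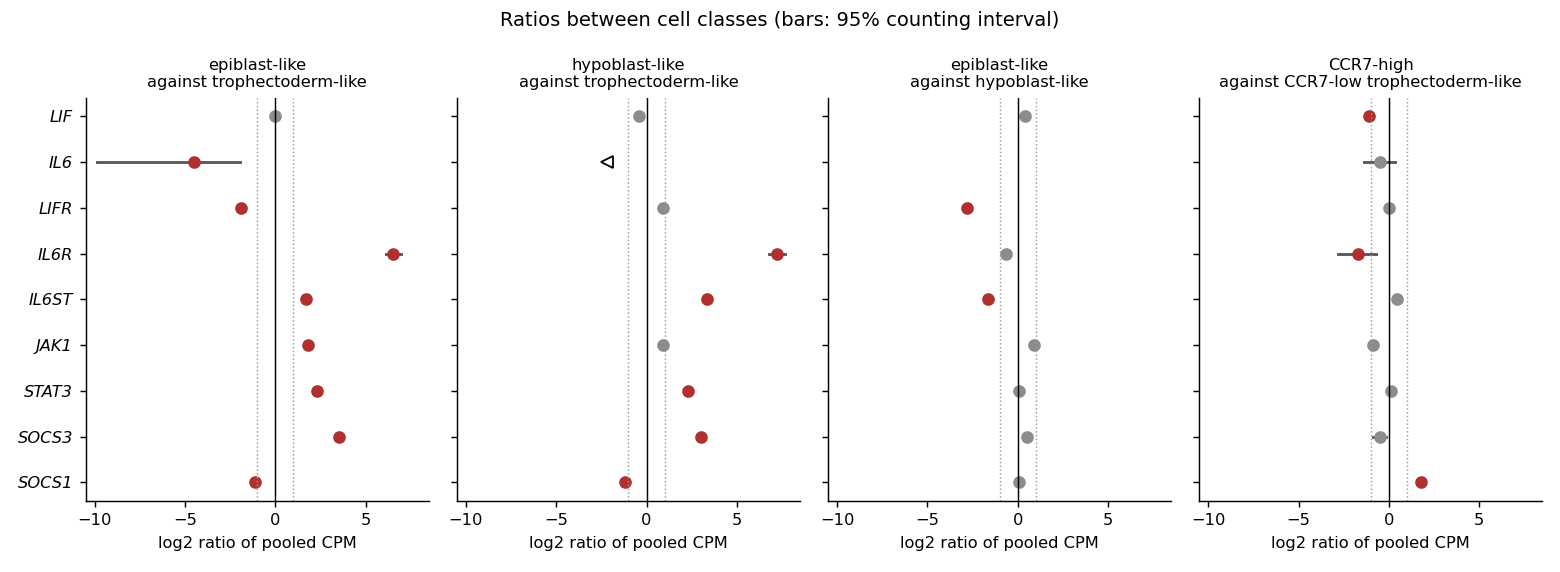
Ratios of pooled CPM between cell classes. The horizontal axis is the log2 ratio of the first class to the second, bars are 95% counting intervals, dotted lines mark 2-fold, red points lie past it, and the open triangle is a bound for IL6, with 0 reads in hypoblast-like cells. IL6R, IL6ST, STAT3 and SOCS3 lie to the right in both comparisons with trophectoderm-like cells.

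Breadth of detection was taken as reads of a gene in 50% or more of a class. It was met by 6 of the 9 members in epiblast-like, 6 in hypoblast-like and 6 in CCR7-low cells, and by 4 in CCR7-high cells, against 72.1%, 66.5%, 65.6% and 68.7% of all genes. Over all trophectoderm-like cells it was met by 6 members, among them LIFR at 50.5%, against 66.7% of all genes, and by 5 with cells thinned to equal depth, a lower minimum of genes or detection from 2 reads. IL6R, IL6ST, JAK1, STAT3, SOCS3 and SOCS1 made up the 6 in the first pair of classes, and LIF and LIFR took the place of IL6R and SOCS3 in all trophectoderm-like cells together. A cell had reads for a median of 6, 6 and 5 members.

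Hypoblast-like cells were not uniform. FOXA2, an endoderm transcription factor among the hypoblast markers, was at 10 CPM or more in 14 of the 32 cells, and 0 cells lay between 5 and 20 CPM. This division was chosen after the values were seen. IL6R had a median of 22.8 CPM in the cells with FOXA2 (range 0 to 50.6) and 2.25 CPM in the 18 others (range 0 to 26.4), and 11 of 14 against 2 of 18 cells reached 10 CPM. IL6R was thus higher in most hypoblast-like cells with FOXA2, although the ranges overlapped and a read was found in 12 of the 18 others, against 13 of 14. The pooled IL6R levels were 25.3 and 5.74 CPM, a ratio of 4.41. SOCS1 (22.1 and 8.04 CPM), SOCS3 (6.53 and 2.63 CPM) and LIF (3.53 and 1.42 CPM) were also at least 2-fold higher with FOXA2. LIF rests on 1 cell, the deepest of them, which held 56.3% of the LIF reads of the cells with FOXA2: without it the ratio was 1.32, both medians were 0, and reads were found in 5 of 14 against 8 of 18 cells. Without the cell with most reads of each gene, the ratios were 3.62 for IL6R, 2.36 for SOCS1 and 2.17 for SOCS3. These 4 of 9 members, or 3 without those cells, compare with 12.7% of all genes, and 0 members were higher without FOXA2, against 16.9%. IL6ST (458 and 309 CPM) and STAT3 (58.01 and 86.5 CPM) stayed within 2-fold. The median totals were 3510354 reads with FOXA2 (1679888 to 9491341) and 4386432 without it (2313315 to 6834657).

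**Figure D4:**
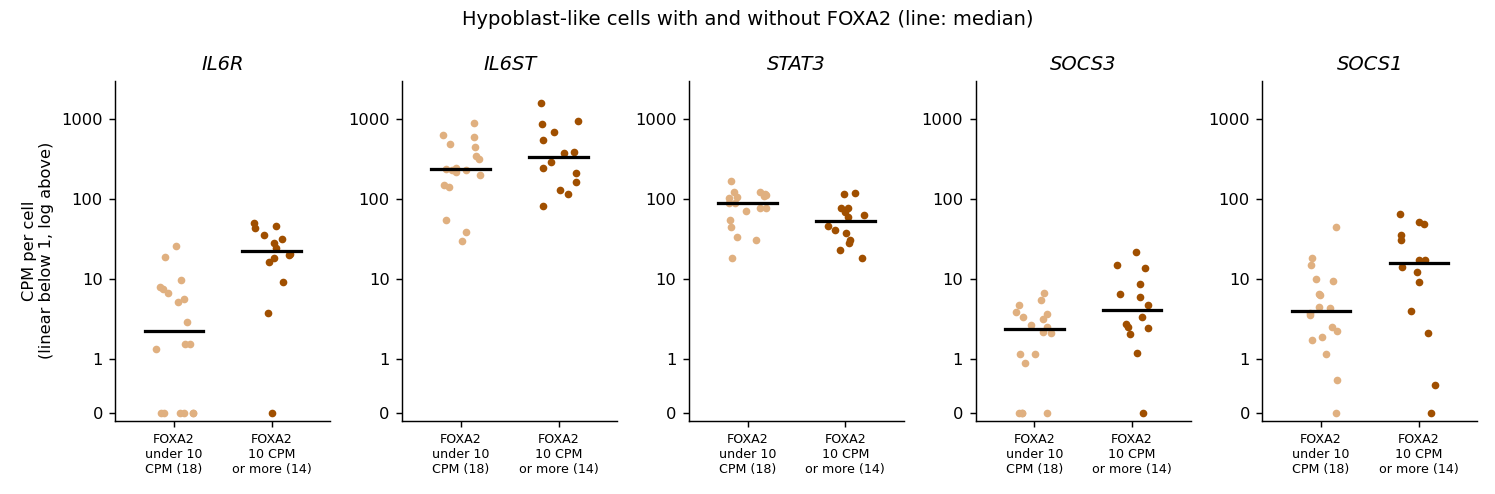
Members in hypoblast-like cells by FOXA2. Each point is 1 cell, the vertical axis is CPM (linear below 1, logarithmic above), the columns are the 18 cells under and the 14 cells at or above 10 CPM of FOXA2, and the line is the median. IL6R has medians of 2.25 and 22.8 CPM, while IL6ST and STAT3 overlap broadly.

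Epiblast-like cells were also divided after the values were seen, by ISL1, a gene of the amnion list, at 10 CPM (23 cells with and 27 without, 17 of them between 5 and 20 CPM). STAT3 had 71.99 and 83.1 CPM, IL6ST 129.9 and 112.3 CPM, IL6R 9.53 and 8.09 CPM and SOCS3 6.01 and 6.30 CPM. LIF had 1.995 and 4.003 CPM, with a median of 0 in both sets and reads in 11 of 23 and 11 of 27 cells. The ranges of the cells overlapped for each of these genes.

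Within the classes, relations between members were weak to moderate and are given as descriptions over cells of 1 sample. In 50 epiblast-like cells IL6R was related to IL6ST (Spearman's rho 0.39) and to SOCS3 (0.39), and IL6ST to SOCS3 (0.38). In 32 hypoblast-like cells the highest values were between JAK1 and SOCS3 (0.54), IL6R and JAK1 (0.51) and IL6R and SOCS3 (0.46). In trophectoderm-like cells 0 pairs passed 0.35 in size, and many of the members there were sparse. STAT3 and its target SOCS3 were hardly related within a class, with 0.18 in epiblast-like, 0.06 in hypoblast-like and 0.17 in trophectoderm-like cells.

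The genes whose pattern over all cells of the 3 classes was most like that of each member were found among 9532 genes with a symbol and a read in at least 50% of cells. For STAT3 they were ZBTB8OS (rho 0.74), CD70 (0.73) and RRAD (0.71), which had 363.5, 85.7 and 799 CPM in epiblast-like and 105.4, 1.42 and 15.2 CPM in trophectoderm-like cells. For IL6ST they were BAMBI (0.55), ITGA6 (0.55) and BMP2 (0.54), with 329, 176.4 and 365 CPM in hypoblast-like and 14.1, 49.6 and 3.86 CPM in trophectoderm-like cells. For JAK1 they were ZBTB8OS (0.57), PAPSS2 (0.55) and L1TD1 (0.55). For SOCS1 they were TBC1D10A (0.51), CYP11A1 (0.49) and KDM1A (0.49), all highest in trophectoderm-like cells. For LIF the values were lower, with DRAM1 (0.36), MAFG (0.34) and ZDHHC17 (0.34). The class differences and the depth of the cells enter all of these values.

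The other genes of the pathway were taken from lists that were also chosen with earlier results of these data known. They hold 52 genes: 8 cytokines, 4 receptors, 9 kinases and STATs, 13 inhibitors, 5 adaptors and 13 targets. Between epiblast-like and trophectoderm-like cells 17 of them (32.7%) were at least 2-fold higher and 3 (5.77%) lower, against 22.7% and 13.1% of all genes. The median log2 ratio of the 52 genes was 0.46, against 0.12 for all genes. Between hypoblast-like and trophectoderm-like cells 11 were higher (21.2%) and 12 lower (23.1%), against 15.1% and 16.6%, so the list as a whole did not lean one way there. Between epiblast-like and hypoblast-like cells 13 were higher (25%) and 2 lower (3.85%), against 20.3% and 8.02%. Between CCR7-high and CCR7-low cells 10 were higher (19.2%) and 7 lower (13.5%), against 11.8% and 11.2%.

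**Figure D5:**
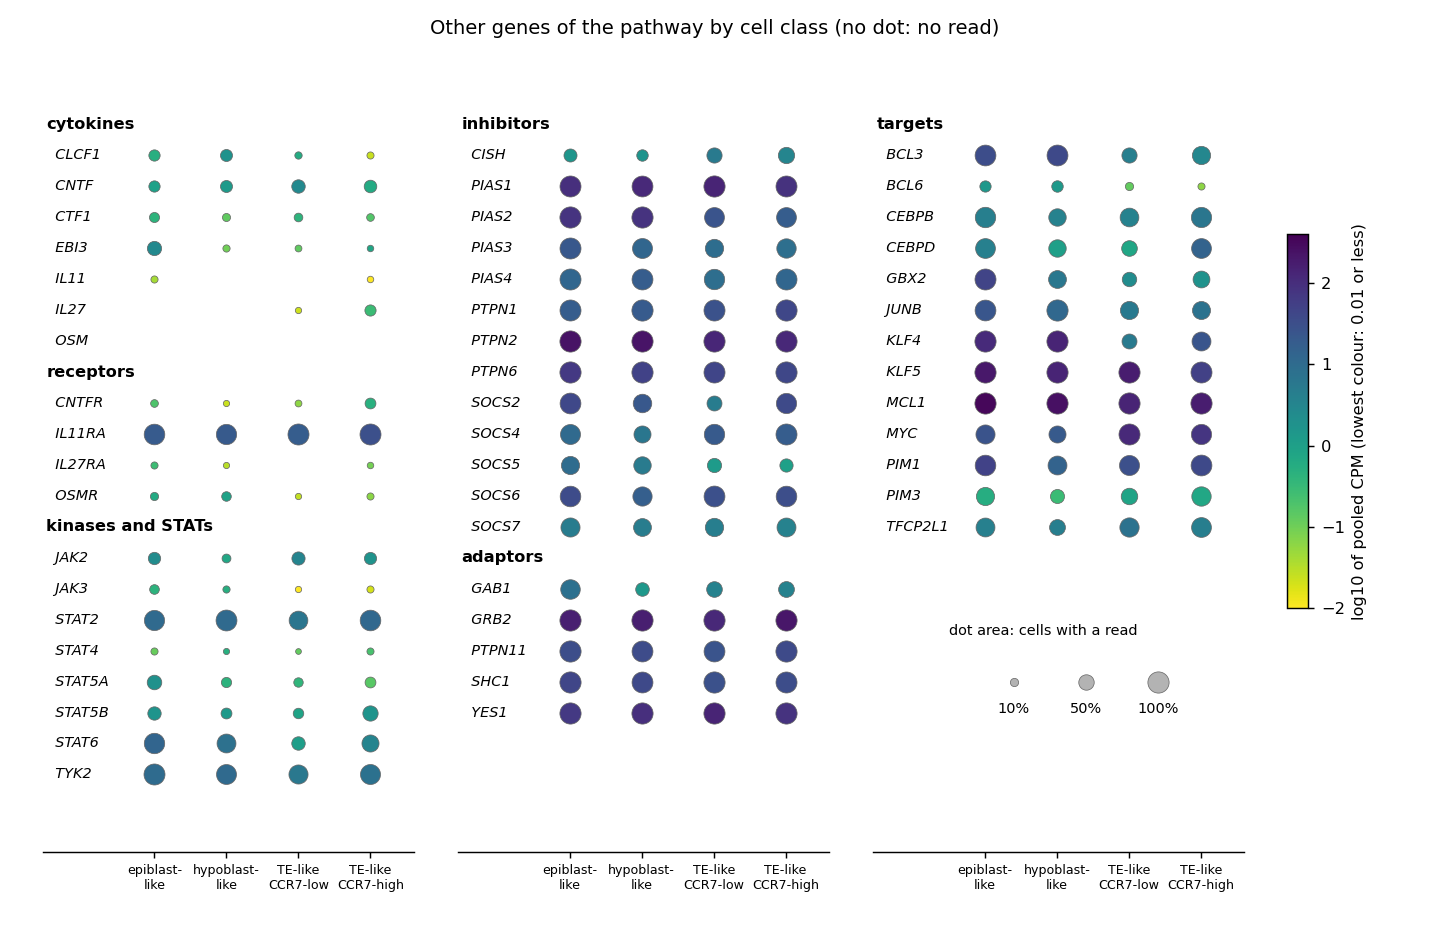
Other genes of the pathway, 50 of the 52, in 4 cell classes. Colour gives the log10 of the pooled CPM, dot area the share of cells with a read, and a missing dot means no read. The cytokines are at low levels throughout, and among the targets KLF4, BCL3 and GBX2 are darker in epiblast-like than in trophectoderm-like (TE-like) cells.

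The cytokines were low, as LIF and IL6 were: 0 of the 8 reached 5 CPM in any class, and OSM, which also signals through gp130, had 0 reads. Of the 4 other receptors, IL11RA had 20.0, 20.7 and 24.2 CPM in epiblast-like, hypoblast-like and trophectoderm-like cells, while OSMR, CNTFR and IL27RA stayed below 1 CPM in every class. These genes were named after their values were seen, since none passed the rule for named genes. Among the 9 kinases and STATs, 3 (33.3%) were higher in epiblast-like than in trophectoderm-like cells and 0 lower, against 22.7% and 13.1% of all genes. STAT6, which transmits IL-4 signals, had 13.1, 8.08 and 2.22 CPM, a ratio of 5.88 between the first and the last.

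Of the 13 inhibitors, 3 (23.1%) were higher and 1 (7.69%) lower in epiblast-like than in trophectoderm-like cells, against 22.7% and 13.1% of all genes. SOCS5 had 10.0, 4.97 and 1.13 CPM in epiblast-like, hypoblast-like and trophectoderm-like cells, and PIAS2, a SUMO ligase of the PIAS family, 80.3, 83.8 and 22.2 CPM. Both thus had their lowest level in trophectoderm-like cells, as SOCS3 did. SOCS4 was lowest in hypoblast-like cells, with 10.9, 6.33 and 19.4 CPM. SOCS2, an inhibitor of growth hormone signalling, was the 1 inhibitor (7.69% of 13, against 11.8% of all genes) 2-fold or more higher in CCR7-high than in CCR7-low cells, with 36.8 and 4.82 CPM, a ratio of 7.63, and 46 of 51 against 28 of 60 cells with a read (42 of 46 and 25 of 54 after thinning). SOCS1 and SOCS2 were therefore both higher in CCR7-high cells, and SOCS3 was not, with 0.435 and 0.621 CPM. Of the 5 adaptors, GAB1, a docking protein for gp130 and growth factor receptors, had 8.28, 1.43 and 3.70 CPM, and the other 4 were within 2-fold between epiblast-like and hypoblast-like cells.

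Of the 13 genes listed as STAT3 targets, 6 (46.2%) were higher and 1 (7.69%) lower in epiblast-like than in trophectoderm-like cells, against 22.7% and 13.1% of all genes. KLF4, a naive pluripotency factor, had 111.6, 136.2 and 14.4 CPM in epiblast-like, hypoblast-like and trophectoderm-like cells, with reads in every cell of the first and second class and in 61.3% of the third. BCL3, a regulator of NF-kappaB, had 34.3, 37.7 and 3.65 CPM. GBX2, a homeobox factor, was mainly epiblast-like, with 46.3, 5.98 and 2.14 CPM, a ratio of 21.7 over trophectoderm-like cells and of 7.75 over hypoblast-like cells. KLF4 and BCL3 were thus lowest in trophectoderm-like cells, as STAT3 was, while GBX2 was also low in hypoblast-like cells. The targets did not move as one: between hypoblast-like and trophectoderm-like cells 4 were higher and 4 lower (30.8% each, against 15.1% and 16.6% of all genes), among the latter MYC with 20.95 and 96.6 CPM, named after its values were seen. CEBPD, an acute-phase factor, was split within the trophectoderm-like cells, with 14.1 CPM in CCR7-high and 0.760 CPM in CCR7-low cells, a ratio of 18.5. This ratio, like those of SOCS2 and KLF4, is given only for the split into 60 and 51 cells. The split into 72 and 39 cells came in more of the runs. KLF4 was also higher in CCR7-high cells, with 24.1 against 5.24 CPM and reads in 40 of 51 against 28 of 60 cells (32 of 46 and 26 of 54 after thinning). One of the CCR7-high cells with POU5F1, at 381.6 CPM, held 41.8% of the CCR7-high KLF4 reads, and without it the level was 14.4 CPM and the ratio 2.75 in place of 4.59. Many of these genes answer to other pathways too, and the part of STAT3 in their levels was not tested.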

How the data were processed

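The authors deposited raw read counts per Ensembl chimpanzee gene, 1 column per cell. Per the study's methods, reads were trimmed, aligned to a chimpanzee genome and counted with STAR. The submitters' processing notes list Trim Galore 0.6.6 and STAR 2.7.7a with a human build. Counts are of reads, without molecular identifiers, and the strand setting is not given in the sources used here. Symbols came from a table that covers 18783 of 33729 identifiers.

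Cells with fewer than 4000 reads or 8000 detected genes were left out. The study kept fewer cells under the same minimums. Scanpy 1.11.5 normalized and log-transformed the counts of 15804 genes read in at least 20 cells and computed 50 components and 30 neighbours, and leidenalg 0.10.2 clustered them at a resolution of 1. Clusters were named from marker lists. Doublets were neither called nor removed. No pair of cells had identical counts.

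Levels are reads of a gene over all reads of a class, in CPM, with exact Poisson 95% intervals. Shares have exact Clopper-Pearson intervals, and ratios exact conditional binomial ones. A count of 0 was set to 3 reads for a bound. Thinning used 2532312 reads per cell and left out 20 cells. TMM factors came from edgeR 4.0.16 in R 4.3.3. The ratios were checked on simulated counts.

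The members, the lists and the rule for named genes were chosen with earlier results of these data known. The rule names the 9 members, the markers, at most 4 genes per pathway list that were 2-fold or more apart between classes with at least 5 CPM in the higher one, and the 3 genes most like each member read in at least 50% of cells. Sequences were not used here, and positions only to name genes that overlap a member in a RefSeq table, whose assembly (mPanTro3) is not that of the counts. Alternatives covered the cell filter, clustering, depth, scaling, pooling and thresholds. Of the 52 pathway genes, 2 are counted in the lists but not reported here by name or value.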

Additional observations from a re-analysis of the deposited data

Results flagged for a closer look

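The 24 cells with fewer than 8000 detected genes took no part in the comparisons, and 7 of the 9 members had more reads in them than a count of 0 allows, which is why they are listed. Pooled over these cells, LIF was at 7.83 CPM with reads in 2 cells, IL6R at 2.15 CPM in 3 cells and IL6ST at 144.9 CPM in 19 cells. JAK1 was at 6.39 CPM in 13 cells, STAT3 at 19.8 CPM in 16 cells, SOCS3 at 7.03 CPM in 6 cells and SOCS1 at 31.6 CPM in 17 cells. IL6 had 0 reads and LIFR 1 read. These cells had a median of 1660767 reads and were not assigned to a class, so the levels may mix cell types.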

How the results depend on the processing

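Of 35 ratios of members between classes, 27 stayed on the same side of 2-fold under every alternative run for them and 8 did not. The exceptions were IL6 in both comparisons with trophectoderm-like cells, which fell to log2 ratios of -0.14 and -0.15 with 1 CPM added, SOCS1 between epiblast-like and trophectoderm-like cells, JAK1 between hypoblast-like and trophectoderm-like cells, and LIF, JAK1, SOCS3 and IL6R between CCR7-high and CCR7-low cells. JAK1 reached -1.04 and SOCS3 -1.02 at a Leiden resolution of 1.5, and SOCS3 -1.03 without the cells of changing class. IL6R turned from -1.70 to 0.48 without the highest cell of each class. A limit of 4-fold left 4 members apart between epiblast-like and trophectoderm-like, 1 between epiblast-like and hypoblast-like and 0 between CCR7-high and CCR7-low cells, and 1.5-fold gave 4 between epiblast-like and hypoblast-like cells. With 1 CPM added to both levels, or with at least 5 CPM in the higher class, 1 member was apart between CCR7-high and CCR7-low cells.

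For the 52 other pathway genes, the numbers apart are given for epiblast-like against trophectoderm-like, hypoblast-like against trophectoderm-like, epiblast-like against hypoblast-like and CCR7-high against CCR7-low cells, in this order. They were 20, 23, 15 and 17 as reported, 13, 13, 7 and 6 with 1 CPM added, 13, 12, 7 and 9 at 4-fold, and 11, 9, 6 and 4 with at least 5 CPM in the higher class, and 1.5-fold gave 32 in the first and 29 in the last.

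The shares of cells with receptor pairs depended on the threshold. For LIFR with IL6ST they were 18% at 1 CPM, 20% at 1 read and 0% at 50 CPM in epiblast-like cells. In hypoblast-like cells they were 21.9% at 1 CPM and 28.1% at 1 read. At 50 CPM the pair was in the hypoblast-like cells with 84.5 and 60.9 CPM of LIFR, which had 140.4 and 874 CPM of IL6ST. In trophectoderm-like cells the shares were 43.2%, 50.5% and 0.901%, so at 50 CPM the hypoblast-like share was the highest. For IL6R with IL6ST they were 80%, 84% and 0% in epiblast-like cells, 78.1%, 78.1% and 3.12% in hypoblast-like cells, and 3.604% at 1 read in trophectoderm-like cells. With detection from 10 CPM, 3 members in place of 6 were in at least 50% of cells of either class, epiblast-like or hypoblast-like.

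The limit of at least 5 CPM and the runs without the deepest cell, without the cells of changing class, in another cell order and without the cell with most reads of a gene were chosen after seeing the data. A run on only the cells with Y-linked reads kept every cell, since all had such reads. It is 1 of the alternatives counted above, but it repeats the main values and tests nothing. No paired analysis was possible because all cells form 1 group. A single sample gives no error between cultures, and counting intervals leave out the spread between cells. For genes with few reads, IL6 above all, levels and ratios rest on small counts.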
